A study of Homo sapiens with 9 samples.

Results

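Cells move zinc with 2 families of membrane proteins, the SLC39A (ZIP) importers, which bring zinc into the cytosol, and the SLC30A (ZnT) exporters, which take it out. The 10 genes described here are 5 importers (SLC39A6, SLC39A7, SLC39A10, SLC39A13 and SLC39A14) and 5 exporters (SLC30A1, SLC30A5, SLC30A6, SLC30A7 and SLC30A9), out of 19775 genes named on the array. They are a named choice from the 2 families, made with the differences between these arrays in view. Their differences are therefore given as descriptions with errors and without p-values. All 28 probe sets annotated to these genes alone, of 54675 on the array, were read, and every gene had at least 1 that passed the filter on dim signal (25 of 28).

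The arrays measured total RNA of SW1783 cells, an established human glioma line, cultured in supplemented DMEM and transfected in PS-free DMEM with Lipofectamine RNAiMAX. The 3 groups received a miRNA duplex at 50 nM for 24 h, with 3 biological replicates each. The duplex was miR-376a*A in the first group, miR-376a*G in another, and miR-control in the group that serves as the reference. miR-376a* is the older name of the 5p arm of miR-376a, and A and G name the unedited form and the form changed by A-to-I RNA editing, in which inosine is read as G. All groups carried a transfected duplex, so no untransfected cells stand beside them, and the values are those of 1 cell line. The labels name the replicates as biological without saying whether they were separate cultures, so p-values measure the spread between these samples.

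A microRNA pairs with transcripts mainly through its seed, bases 2 to 8, and lowers their level or translation. The sequences below show the arm that was transfected in its unedited form and where it lies. They are from RefSeq on GRCh38.p14, on the plus strand of chromosome 14; capitals mark the 5p arm within the MIR376A1 hairpin and the seed within each mature arm.
MIR376A1 hairpin, chr14:101040782-101040849: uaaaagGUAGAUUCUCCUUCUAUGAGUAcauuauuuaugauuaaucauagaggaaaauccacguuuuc
hsa-miR-376a-5p, chr14:101040788-101040809: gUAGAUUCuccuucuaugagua
hsa-miR-376a-3p, chr14:101040825-101040845: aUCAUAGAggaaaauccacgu
The seed of the 5p arm was shared by 0 other of 2370 mature names in the RefSeq table, and that of the 3p arm by 1 other. The edited form and seed matches in the transporters' transcripts were not analysed here.

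Zinc is a structural or catalytic part of many proteins, and cells keep the free ion in the cytosol scarce. ZIP proteins of the plasma membrane take zinc up, and others release it from the endoplasmic reticulum or from vesicles. ZnT1 expels zinc at the plasma membrane, while ZnT proteins of the Golgi and early secretory pathway load the lumen, where secreted and membrane enzymes acquire their zinc. Excess zinc is bound by metallothioneins, whose genes are switched on with SLC30A1 by the zinc-sensing factor MTF1.

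Signals below are the authors' scaled linear intensities, and each difference is between group means of the normalized log2(signal + 16), which understates the difference of dim genes. One library stood apart before any gene is considered. The rank correlation of miR-control replicate 1 with its closest array was 0.941, while the other 8 arrays each reached 0.969 or 0.970 with their closest array, and its array median signal was the highest of a range from 18.8 to 24.0. Among the 10 transporters it was the lowest control for 6 and the highest for 3, as an extreme for 90% of them beside 87.7% of all genes. The differences from miR-control of the members, and of the other genes that passed the test, are therefore given with and without it. Of the glial and glioma markers, VIM (2220 to 4400 signal units over the arrays) and CD44 (2120 to 3110) were bright, EGFR and SOX2 also passed the filter, and GFAP, S100B, OLIG2 and NES did not, so 4 of 8 passed. Epithelial markers passed for 2 of 5 (KRT8 at 48.1 to 68.7 and KRT18 at 1040 to 1780), the blood and immune ones for 0 of 4, and the endothelial ones for 1 of 3 (PECAM1 at 57.2 to 125).

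In the cells with miR-376a*A, the importer genes SLC39A14 and SLC39A10 were both at least 2-fold below their miR-control level. In those with miR-376a*G, SLC39A14 was lower by less, SLC39A10 overlapped with the control, and the exporter gene SLC30A6 was 2.8-fold lower. SLC30A7 was 1.5-fold higher with either form. The other 6 members did not pass the test in any comparison. An array measures RNA per labelled amount, so fewer cells expressing a gene and less of its RNA per cell cannot be told apart.

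Among the importers, SLC39A14 encodes ZIP14, which carries zinc and also manganese and iron not bound to transferrin. Its signal was 1179, 982 and 1059 on the 3 miR-control arrays, 402, 383 and 370.1 with miR-376a*A, and 622, 682 and 656 with miR-376a*G. The groups formed 3 separate levels with no overlap, lowest with miR-376a*A and intermediate with miR-376a*G. The mean signal was 1074 ± 99.5 (SD, n = 3) in miR-control, 385 ± 16.3 (SD, n = 3) with miR-376a*A and 653 ± 30.3 (SD, n = 3) with miR-376a*G. The log2 difference from miR-control was -1.44 (SE 0.09), or 2.71-fold lower, with miR-376a*A and -0.69 (SE 0.09), or 1.62-fold lower, with miR-376a*G. The 2 forms differed from each other by -0.74 (SE 0.09), A minus G. Without miR-control replicate 1 the differences from miR-control were -1.40 (SE 0.08) and -0.67 (SE 0.08).

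SLC39A10 encodes ZIP10, an importer of the plasma membrane. Its signal was 91.7, 169.8 and 202 in miR-control, 59.2, 47.3 and 45.1 with miR-376a*A, and 160.5, 186 and 177 with miR-376a*G. All miR-376a*A arrays lay below all others, the lowest control being miR-control replicate 1, while the miR-376a*G arrays lay among the controls. The log2 difference from miR-control was -1.27 (SE 0.21), or 2.42-fold lower, with miR-376a*A and 0.22 (SE 0.21) with miR-376a*G. Between the forms it was -1.50 (SE 0.21), or 2.82-fold lower with A. Without miR-control replicate 1 the difference of miR-376a*A from miR-control was -1.57 (SE 0.11), and that of miR-376a*G was -0.05 (SE 0.11). The call against miR-control was lost without miR-376a*A replicate 3, where the difference was -1.23. It was also lost when only the 6 arrays of the compared groups were fitted, at -1.26.

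**Figure D1:**
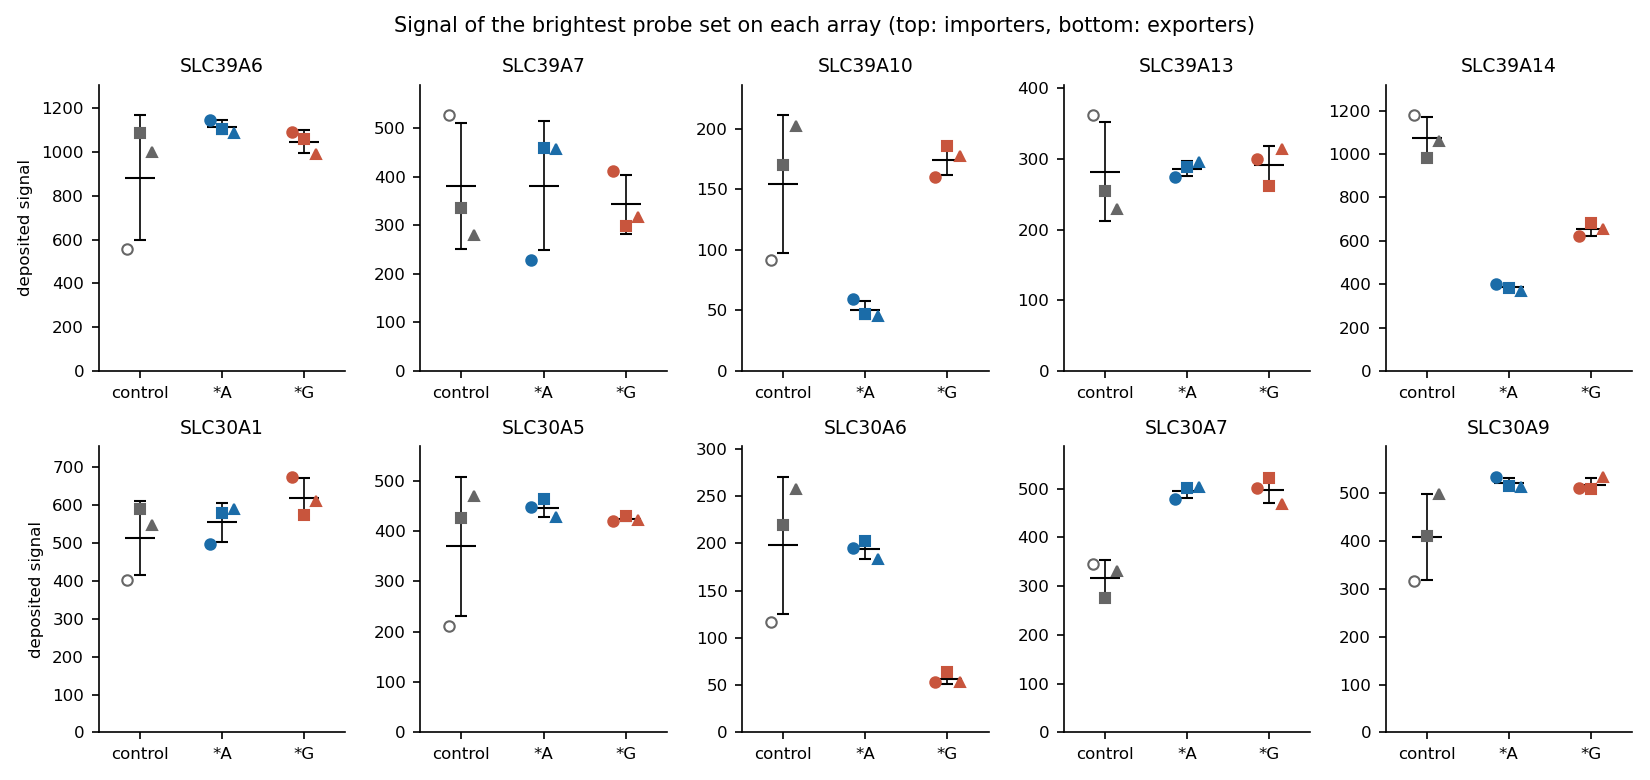
Signal of each of the 10 zinc transporter genes on each array (y axis, linear signal units, from 0; each panel has its own scale), by its brightest probe set, with points for replicates 1 (circle), 2 (square) and 3 (triangle), an open circle for miR-control replicate 1, and group means with SD bars. SLC39A14 forms 3 separate levels, SLC39A10 is low with miR-376a*A, SLC30A6 is low with miR-376a*G, and SLC30A7 is higher with either form than in miR-control.

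The remaining importers did not pass the test in any comparison. SLC39A6 encodes ZIP6, a plasma membrane importer that is a close relative of ZIP10. Its signal was 556, 1089 and 1002 in miR-control, 1147, 1106 and 1085 with miR-376a*A, and 1091, 1060 and 991 with miR-376a*G. The log2 difference from miR-control was 0.33 (SE 0.20) with miR-376a*A and 0.26 (SE 0.20) with miR-376a*G, and 0.03 (SE 0.06) and -0.04 (SE 0.06) without miR-control replicate 1, the lowest array. SLC39A7 encodes ZIP7, which releases zinc from the endoplasmic reticulum. It read 527, 336 and 281 in miR-control, 229, 459.7 and 457 with miR-376a*A, and 412, 299.5 and 317 with miR-376a*G, with all groups overlapping. Its differences from miR-control were -0.02 (SE 0.29) and -0.14 (SE 0.29), and 0.25 and 0.14 without miR-control replicate 1. SLC39A13 encodes ZIP13, which releases zinc from vesicles. Its log2 differences from miR-control were 0.04 (SE 0.17) with either form and 0.26 (SE 0.10) with either form without miR-control replicate 1, and its groups overlapped.

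Among the exporters, SLC30A6 encodes ZnT6, which has no transport activity of its own and works as a heterodimer with ZnT5 (SLC30A5) in the early secretory pathway. The signal of SLC30A6 was 117, 219.9 and 257 in miR-control, 195, 203 and 183 with miR-376a*A, and 53.7, 63.5 and 53.5 with miR-376a*G. All 3 arrays with miR-376a*G lay below the other 6. The miR-376a*A arrays lay within the control range, above miR-control replicate 1 and below the other controls. Group means were 198 ± 72.5 (SD, n = 3) for miR-control, 194 ± 10.0 (SD, n = 3) for miR-376a*A and 56.9 ± 5.70 (SD, n = 3) for miR-376a*G. The log2 difference of miR-376a*G from miR-control was -1.49 (SE 0.20), or 2.80-fold lower, and that of miR-376a*A was 0.03 (SE 0.20). The forms differed by 1.51 (SE 0.20), or 2.86-fold higher with A. Without miR-control replicate 1, which was the lowest control, the difference with miR-376a*G was -1.78 (SE 0.09). That with miR-376a*A was then -0.245 (SE 0.09), without passing the test.

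SLC30A5, its partner, overlapped across groups on its brightest probe set and did not pass the test in any comparison. It read 212, 427 and 470.4 in miR-control, 447, 464 and 428 with miR-376a*A, and 420.4, 431 and 422 with miR-376a*G. The log2 differences from miR-control were 0.30 (SE 0.21) and 0.22 (SE 0.21), and -0.01 (SE 0.08) and -0.09 (SE 0.08) without miR-control replicate 1, the lowest of the 9 arrays. This probe set is of a type that can also read related sequences. None of the 5 SLC30A5 probe sets passed the test. With all arrays they ran from -0.17 to 0.59 with A and from -0.14 to 0.28 with G, so they disagreed in sign.

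SLC30A7 encodes ZnT7, which loads zinc into the Golgi. Its signal was 345, 276 and 331 in miR-control, 479, 502 and 503 with miR-376a*A, and 501, 522 and 468 with miR-376a*G. Every miR-376a* array lay above every control array, and the arrays of the 2 forms overlapped. The log2 difference from miR-control was 0.60 (SE 0.12), or 1.51-fold higher with A and 1.52-fold with G. The forms differed from each other by 0.00 (SE 0.12). Without miR-control replicate 1 both differences were 0.69 (SE 0.09). In the fit with the replicate block, which takes the replicate number as a term, the difference with miR-376a*G was as large and did not pass the threshold. The call with miR-376a*A was also lost without any one of its own arrays, at 0.59 to 0.62, and that with miR-376a*G without its replicate 1 or 2, at 0.59 and 0.56. Each call was lost as well when only the 6 arrays of the compared groups were fitted, at 0.60.

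SLC30A1 and SLC30A9 did not pass the test in any comparison. SLC30A1 encodes ZnT1, the zinc exporter of the plasma membrane. It read 402, 590.2 and 548 in miR-control, 496, 579 and 589 with miR-376a*A, and 675, 574 and 612 with miR-376a*G, with log2 differences from miR-control of 0.09 (SE 0.13) and 0.24 (SE 0.13), and -0.06 (SE 0.09) and 0.10 (SE 0.09) without miR-control replicate 1, the lowest array. SLC30A9 belongs to the ZnT family by sequence and is known for the export of zinc from mitochondria. Its signal was 317, 410.2 and 498 in miR-control, 534, 515 and 514 with miR-376a*A, and 511, 508 and 534 with miR-376a*G. All 6 arrays with either form lay above all controls, with log2 differences of 0.32 (SE 0.13) and 0.31 (SE 0.13), and 0.19 (SE 0.09) and 0.18 (SE 0.09) without miR-control replicate 1. SLC30A9 passed the threshold with array weights, at 0.28 and 0.27, and with miR-376a*G also without miR-control replicate 3, at 0.45.

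**Figure D2:**
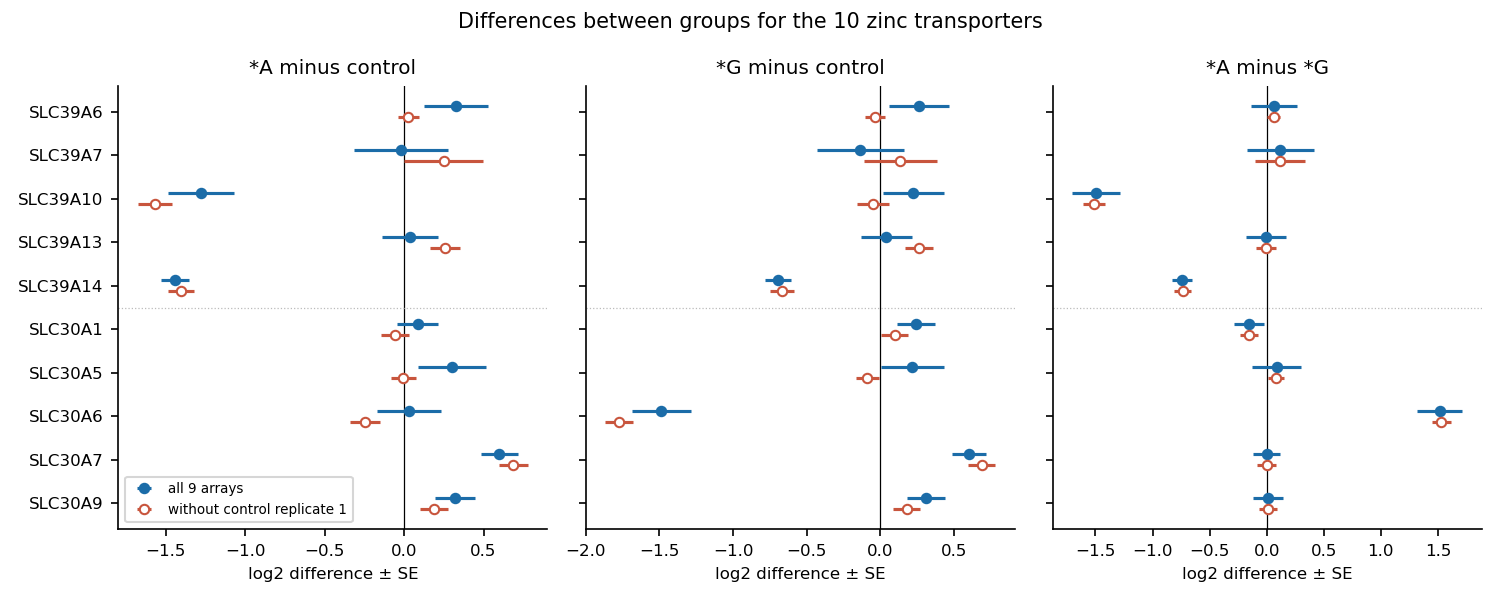
Log2 difference in signal for the 10 zinc transporter genes (x axis, quantile normalized log2(signal + 16) scale, with 1 SE) in the comparisons of miR-376a*A with miR-control, miR-376a*G with miR-control, and A with G, with all 9 arrays (filled) and without miR-control replicate 1 (open). Among the filled points, SLC39A14 lies at -1.44 and SLC39A10 at -1.27 with A, SLC30A6 at -1.49 with G, and SLC39A10 at -1.50 between the forms.

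Counted by role, SLC39A14 and SLC39A10 passed the test lower with miR-376a*A among 5 importers, and SLC30A7 higher among 5 exporters. That is 3 of 10 members, beside 3.33% of the 12505 genes tested in that comparison. With miR-376a*G, 1 importer passed lower, and among exporters 1 passed higher and 1 lower, again 3 of 10 beside 4.62% of all genes, or 2 of 10 with the replicate block. Between the forms, 2 importers were lower and 1 exporter higher with A, 3 of 10 beside 2.63%. By direction, the 1 member that was higher with A stands beside 1.95% of genes and the 2 lower beside 1.38%; with G these shares were 2.5% and 2.12%, and between the forms 1.39% and 1.24%. The members were chosen on these comparisons, so nothing is read from these counts. Without miR-control replicate 1 the same 3 members passed in each comparison, beside 13.5%, 17.3% and 9.87% of genes tested, and their directions held. A difference of at least 2-fold was seen for 2 members with A (SLC39A14 and SLC39A10), 1 with G (SLC30A6) and 2 between the forms (SLC39A10 and SLC30A6), beside 0.88%, 0.888% and 0.616% of genes. The arrays of the groups did not overlap for 2 members higher and 2 lower with A, beside 11.5% and 8.95% of genes. With G the counts were also 2 and 2, beside 12.2% and 9.49%, and between the forms 1 higher and 2 lower with A, beside 14.1% and 15.4%. The median log2 difference over all 10 members was 0.06 with A and 0.22 with G, against 0.01 for all genes in both. These medians take in miR-control replicate 1, the lowest control for 6 members. Without it the exporters differed with G by 0.10, -0.09, -1.78, 0.69 and 0.18. The importers then differed by -0.04, 0.14, -0.05, 0.26 and -0.67, so the median of 0.22 did not hold there.

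A gene's other probe sets show whether 1 probe set speaks for the transcript. With all 54675 probe sets tested and no filter, 3 of the 28 passed with A against miR-control, 4 with G and 3 between the forms, beside 0.911%, 1.24% and 0.704% of all probe sets. Without miR-control replicate 1 these counts were 4, 5 and 4, beside 3.24%, 4.36% and 2.61%. SLC39A14 had 3 probe sets. The second read 55.4, 40.1 and 33.6 in miR-control, 21.2, 23.3 and 27.5 with A, and 28.8, 30.1 and 28.7 with G. It was lower in both, by log2 differences of -0.49 and -0.32, without passing the test, and it read dimly. The third lay below the filter, with 0.02 and 0.11. SLC39A10 has 1 probe set, so its differences have no second reading. A second SLC30A6 probe set, of a type that can also read related sequences, was at 57.2, 115.9 and 122.7 in miR-control, 117.6, 112.5 and 110.2 with A, and 53.3, 53.1 and 50.6 with G. Its log2 difference with G was -0.64, its arrays lay apart from the control arrays, and it passed the test without miR-control replicate 1, at -0.95. Another SLC30A6 probe set differed by -0.23 with G and -0.39 with A without passing. Without miR-control replicate 1 it differed by 0.04 with G and -0.13 with A, so it showed no fall with G there. The last lay below the filter. For SLC30A7 the second probe set was higher by 0.69 with A and 0.80 with G, where it passed, and the third by 0.15 and 0.23 without passing. Taking the mean of a gene's probe sets that passed the filter in place of the brightest, SLC30A6 differed by -0.78 with G and by 0.75 between the forms, and SLC39A14 by -0.97 with A, -0.51 with G and -0.46 between the forms, all still past the threshold. All 4 probe sets of SLC39A6 lay above 0 with A, and none passed the test. Without miR-control replicate 1 the brightest was at 0.03 and the others at 0.17 to 0.38, again without passing.

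**Figure D3:**
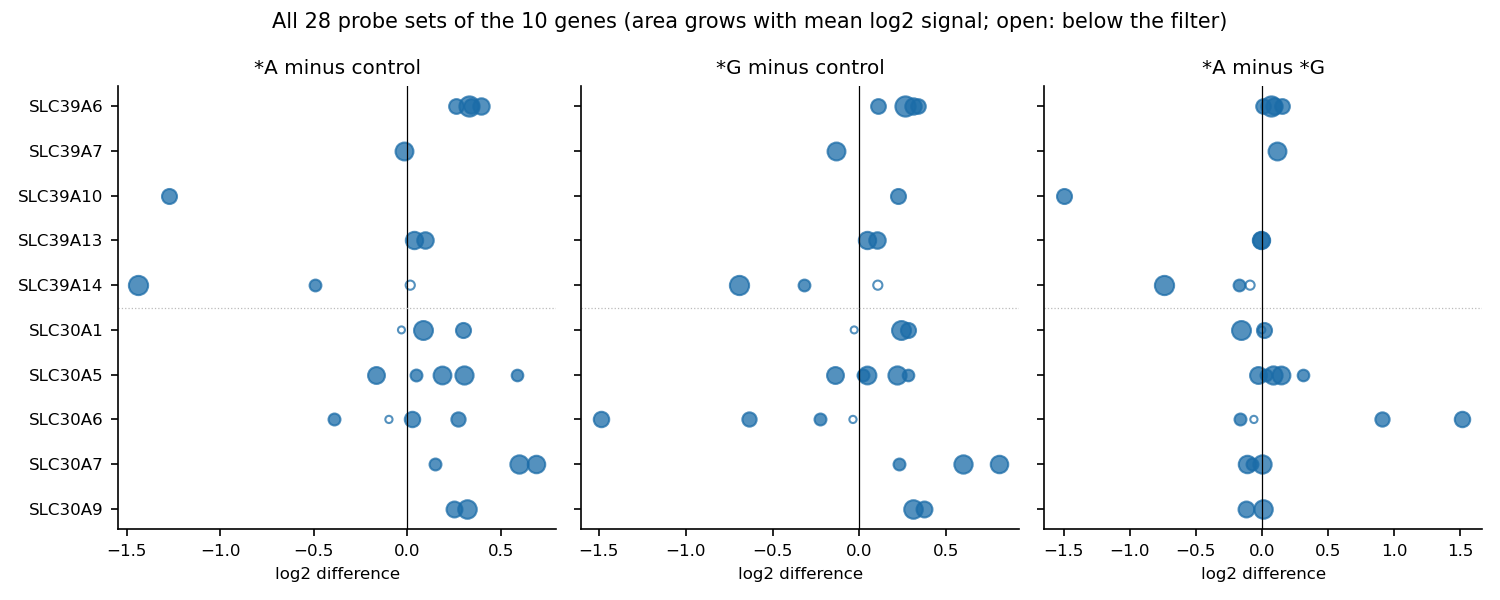
Log2 difference of each of the 28 probe sets of the 10 genes (x axis, quantile normalized log2(signal + 16) scale; 1 row per gene) in the 3 comparisons, from the fit over all probe sets with 9 arrays. Point area grows with the mean log2 signal and open points lie below the filter; the probe sets of SLC39A14, SLC30A6 and SLC30A7 differ in size within a gene, and SLC39A10 and SLC39A7 have 1 each.

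Taking the mean log2 value of the 5 importers minus that of the 5 exporters per array sets the families side by side; it was chosen with the differences known and gets no p. It was 0.60, 0.27 and 0.09 on the miR-control arrays, -0.48, -0.41 and -0.38 with miR-376a*A, and 0.30, 0.24 and 0.30 with miR-376a*G. The 3 arrays with miR-376a*A lay below the other 6, and the miR-376a*G arrays lay among the controls. The group means were 0.32 ± 0.26 (SD, n = 3), -0.42 ± 0.05 (SD, n = 3) and 0.28 ± 0.03 (SD, n = 3), a difference from miR-control of -0.74 with A and -0.04 with G. Without SLC39A14 the A difference was -0.50, and without SLC39A10 -0.54. These genes were not left out together. The remaining importers, SLC39A6, SLC39A7 and SLC39A13, differed from miR-control with A by 0.33, -0.02 and 0.04. The exporters differed by 0.09, 0.30, 0.03, 0.60 and 0.32, so no fall shared by all importers is read from the score. For G, leaving out SLC30A6 gave -0.40 and leaving out SLC39A14 gave 0.12. Without miR-control replicate 1 the differences were -0.60 with A and 0.11 with G. The per-family medians of the log2 difference with A were -0.02 for importers and 0.30 for exporters, over all 9 arrays. Without miR-control replicate 1, SLC39A6, SLC39A7, SLC39A10, SLC39A13 and SLC39A14 differed with A by 0.03, 0.25, -1.57, 0.26 and -1.40. In that fit SLC30A1, SLC30A5, SLC30A6, SLC30A7 and SLC30A9 differed by -0.06, -0.01, -0.245, 0.69 and 0.19. The higher median of the exporters did not hold there.

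**Figure D4:**
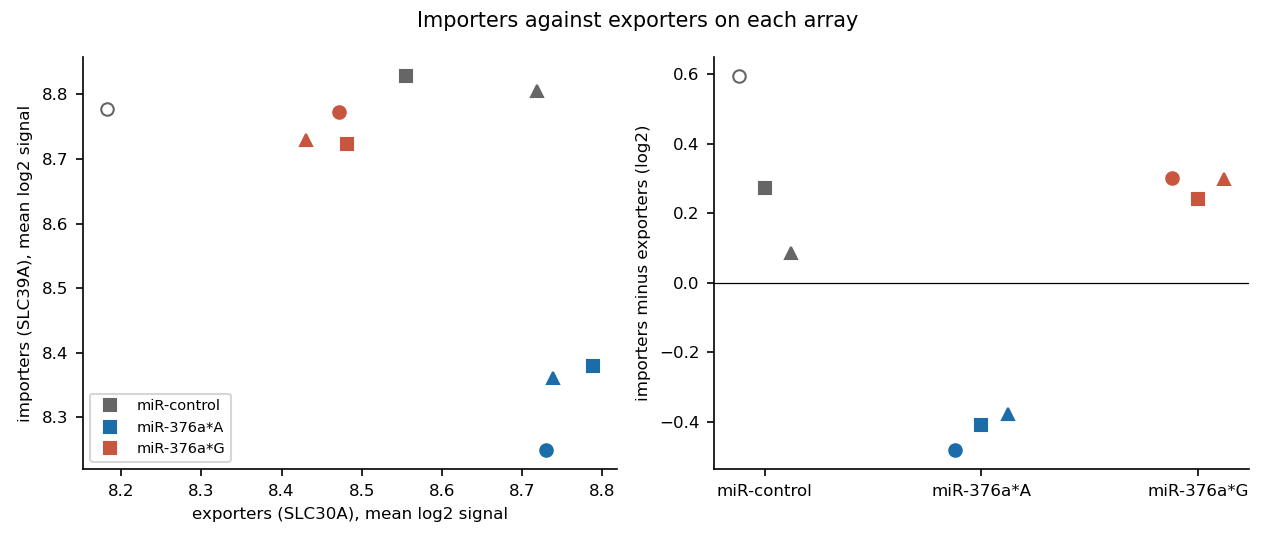
Left, mean log2(signal + 16) of the 5 importers (y axis) against that of the 5 exporters (x axis) on each of the 9 arrays, quantile normalized; right, importers minus exporters on the same scale by group. Circles, squares and triangles are replicates 1, 2 and 3, and miR-control replicate 1 is open; the miR-376a*A arrays sit at -0.48, -0.41 and -0.38, below the other 6 arrays, and the open circle has the lowest exporter mean.

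The 14 other SLC30 and SLC39 genes on the array were tested in the same limma fit. Of these, 9 passed the filter and SLC30A2, SLC30A3, SLC30A8, SLC30A10 and SLC39A12 did not. With miR-376a*A, 0 of the 9 rose and 2 fell, while of all genes 1.95% were called higher and 1.38% lower. With miR-376a*G 0 rose and 1 fell, beside 2.5% and 2.12%. Between the forms 0 were higher and 1 was lower with A, beside 1.39% and 1.24%. Their median log2 differences were -0.18, -0.14 and -0.03, against 0.01, 0.01 and 0 for all genes. Without miR-control replicate 1, 2 of the 9 were lower with A and 1 with G, and between the forms 1 was higher and 2 were lower with A. In that fit 13.5%, 17.3% and 9.87% of genes were called in either direction. SLC39A1 encodes ZIP1, an importer of the plasma membrane. Its signal was 237, 254 and 262 in miR-control, 168, 164 and 135 with miR-376a*A, and 231, 244 and 252 with miR-376a*G. All 3 arrays with A lay below all the others, at a log2 difference from miR-control of -0.66 (SE 0.11, adjusted p = 0.00769) and from G of -0.58 (adjusted p = 0.0171), against -0.08 (adjusted p = 0.758) between G and miR-control. Over the alternatives the adjusted p with A ran from 0.000196 to 0.0653, and it was 0.051 without miR-376a*A replicate 3. The difference with A was -0.65 (adjusted p = 0.0011) without miR-control replicate 1. The call between the forms was lost without any one array of either form, at an adjusted p of 0.0532 to 0.108.

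SLC39A9 encodes ZIP9, a family member of the Golgi and plasma membrane. It read 722, 564 and 615 in miR-control, 437, 442 and 436 with A, and 525, 571 and 593 with G, and fell with A by a log2 difference of -0.51 (SE 0.11, adjusted p = 0.0263). That call was lost in 8 of 20 alternatives, with adjusted p from 0.00248 to 0.121, among them without any one miR-376a*A array (0.111, 0.118 and 0.121), without miR-control replicate 3 (0.0552) and without miR-376a*G replicate 2 (0.0605). The SLC39A9 difference with A was -0.42 (adjusted p = 0.00566) without miR-control replicate 1. SLC39A2, a dim importer gene, read 42.9, 28.2 and 33.1 in miR-control, 36.5, 32.8 and 29.8 with A, and 18.4, 20.2 and 17.6 with G. It fell with G by -0.48 (SE 0.12, adjusted p = 0.0474), and the adjusted p was 0.0807 with the replicate block and 0.0208 to 0.175 over the alternatives, of which 13 of 20 lost the call. These include leaving out miR-control replicate 3 (0.0816) or any one array of either form (0.0841 to 0.16). For SLC39A2 the difference with G was -0.39 (adjusted p = 0.0303) without miR-control replicate 1. Neither SLC39A8 (-0.04 with A, adjusted p = 0.935), which encodes the close relative of ZIP14, nor SLC39A3, SLC39A4, SLC39A5, SLC39A11 or SLC30A4 passed the test. For SLC39A8 the brightest probe set differed by -0.10 with G. A dim SLC39A8 probe set below the filter passed with G in the fit over all probe sets, at -0.72, and its other probe sets did not.

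**Figure D5:**
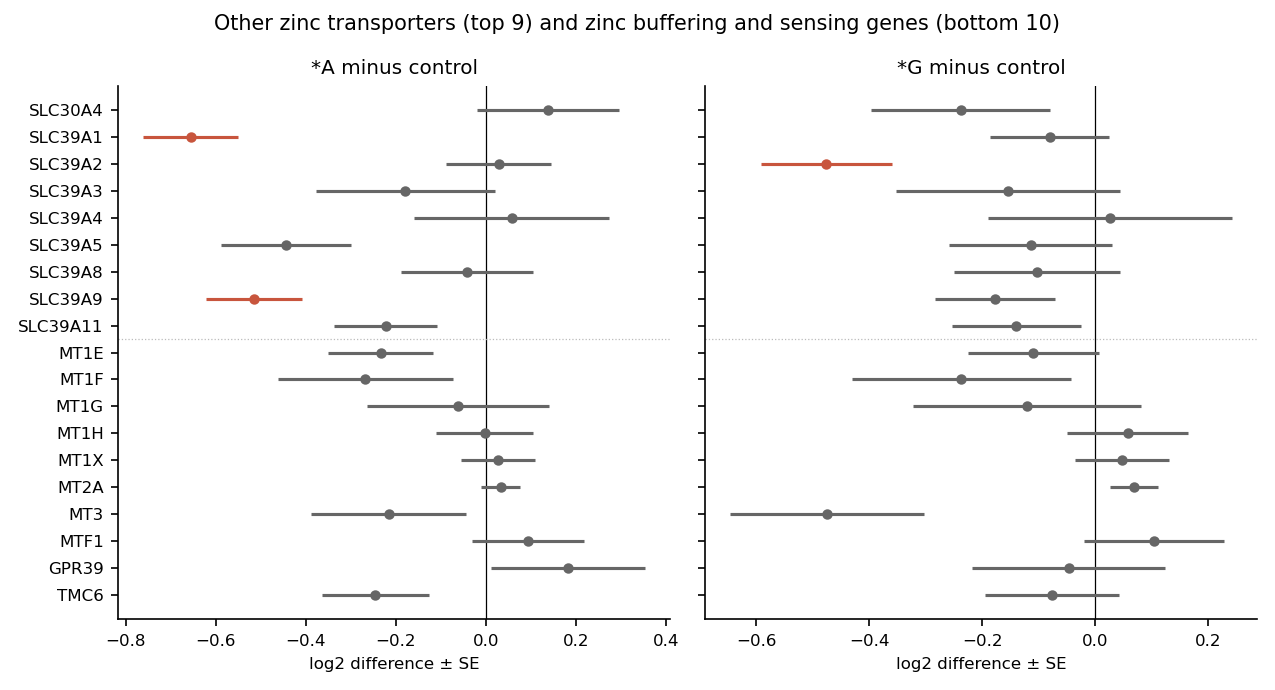
Log2 difference from miR-control (x axis, quantile normalized log2(signal + 16) scale, bars 1 SE) in the groups of each miR-376a* form (A left, G right) for the 9 tested other SLC30 and SLC39 genes (top) and the 10 tested zinc buffering and sensing genes (bottom), all from the fit of 9 arrays, with red for genes that passed the limma threshold. SLC39A1 at -0.66 and SLC39A9 at -0.51 are red with A, SLC39A2 at -0.48 is red with G, and no buffering or sensing gene is.

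Zinc buffering and sensing genes include the metallothioneins, which bind zinc, and MTF1. Of 18 such genes 14 were on the array and 10 were tested with limma; 0 passed in any of the 3 comparisons, with 0, 1 and 0 at an unadjusted p under 0.05. The limma fit without miR-control replicate 1 also called 0 of 10 in each. MT2A and MTF1 are named here after their values were seen. MT2A, a metallothionein whose family members are nearly identical in sequence, so that its probe sets may also read its relatives, had signals of 5508, 3003 and 2810 in miR-control, 3121, 2950 and 3593 with A, and 3293, 3344 and 2857 with G. The miR-control replicate 1 array was the highest of the 9, and the log2 difference was 0.03 with A and 0.07 with G, and 0.03 and 0.06 without that array. The highest signal of any probe set was 7191 on that array and 3601 to 4374 on the others. MT2A thus read near the top of the scale, where a difference can be understated, so these values cannot settle whether its RNA differed. MTF1 differed by 0.09 (SE 0.12) with A and 0.10 with G, and by 0.00 and 0.01 without miR-control replicate 1.

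The promoters of the MTF1 targets SLC30A1 and MT2A show where the core of a metal response element, the site that MTF1 binds, occurs. The 250 bases before the gene start are given 5′ to 3′ from RefSeq on GRCh38.p14, with SLC30A1 on the minus strand and MT2A on the plus strand, and capitals mark matches to TGCACNC or TGCGCNC on either strand.
SLC30A1, chr1:211579162-211579411: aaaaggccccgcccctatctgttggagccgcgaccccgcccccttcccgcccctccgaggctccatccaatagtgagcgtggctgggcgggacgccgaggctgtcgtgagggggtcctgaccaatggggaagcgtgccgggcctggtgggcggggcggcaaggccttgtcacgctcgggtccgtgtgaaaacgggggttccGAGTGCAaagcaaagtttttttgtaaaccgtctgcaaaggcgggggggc
MT2A, chr16:56608334-56608583: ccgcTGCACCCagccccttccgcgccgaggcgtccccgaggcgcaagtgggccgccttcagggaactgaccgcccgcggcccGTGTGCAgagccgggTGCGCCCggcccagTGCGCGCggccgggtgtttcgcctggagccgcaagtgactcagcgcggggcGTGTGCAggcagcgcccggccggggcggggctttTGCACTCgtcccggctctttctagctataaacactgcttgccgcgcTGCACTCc
MT2A held 7 matches and SLC30A1 held 1, beside 24.8% of 35116 promoter windows of the same length with at least 1 and 0.37% with 4 or more. Of the members, 9 had a window, and 4 of them held a match (SLC30A1, SLC30A6, SLC39A6 and SLC39A13). These 9 genes had 11 windows in all, and the 24.8% counts windows, not genes. A match is a run of letters, not a measured site. No window was read for SLC39A14.

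Other metal genes were read from fixed lists. Of 5 secretory zinc protein genes tested, 0 passed in any comparison, with 1, 0 and 0 at an unadjusted p under 0.05 for A against control, G against control and A against G. Without miR-control replicate 1, 6 of these genes were tested and 1 was lower with G, ENPP2, a zinc-dependent secreted enzyme (-0.33, adjusted p = 0.0193). In that comparison 17.3% of all genes were called in either direction. Iron and manganese genes, which share cargo with ZIP14, passed for 0 of 13 with A (3 at an unadjusted p under 0.05). With G 1 of 13 passed, lower, beside 2.12% of all genes called lower. That gene is HFE, which regulates iron uptake. HFE read 227, 195.5 and 239 in miR-control, 188, 163 and 158 with A, and 126, 152 and 129 with G, with no overlap between G and control. Its log2 difference with G was -0.66 (SE 0.13, adjusted p = 0.0175), and the adjusted p was 0.0515 with the replicate block and ran from 0.00423 to 0.155 over the alternatives. It was 0.0866 without miR-376a*G replicate 1 and 0.0855 without replicate 3 of that group. The HFE difference without miR-control replicate 1 was -0.59 (adjusted p = 0.00498), and HFE was again the 1 iron or manganese gene of 13 called with G, with 0 called with A. All 14 other HFE probe sets were below 0 with G, from -0.60 to -0.04, the last on a probe set below the filter. Taking the mean of the HFE probe sets that passed the filter, the difference was -0.26 (limma adjusted p = 0.155) and the call was lost. The brightest HFE probe set, which gave the call, is of a type that can also read related sequences. Copper genes passed for 0 of 9 with A (2 at an unadjusted p under 0.05) and for 1 with G. That gene was SLC31A2, a copper transporter, at 104, 115 and 105 in miR-control, 95.1, 103 and 107 with A, and 77.1, 74.9 and 76.3 with G. It fell by -0.42 (SE 0.10, adjusted p = 0.0481), or an adjusted p of 0.116 with the replicate block, and 13 of 20 alternatives lost the call, with adjusted p from 0.00253 to 0.19. These include leaving out miR-control replicate 2 (0.1) or 3 (0.0589) or any one array of either form (0.0831 to 0.19). The SLC31A2 difference was -0.41 (adjusted p = 0.0123) without miR-control replicate 1. In that fit 3 of 10 copper genes were lower with A and 2 of 10 with G, beside 13.5% and 17.3% of all genes called in either direction, against 3.33% and 4.62% with all 9 arrays.

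For the 3 genes with a difference of at least 1 on the log2 scale, the genes most alike over the 9 arrays are named by Pearson r, as a description of arrays that share groups and normalization. SLC30A6 ran with PRRC1 (r = 0.995) and HDAC4 (r = 0.993), which were lower with miR-376a*G by log2 differences of -0.91 and -0.95 and stood at -0.05 with A. SLC39A10 ran with SLC35A1 (r = 0.992) and GFPT1 (r = 0.989), at -0.83 and -0.88 with A and 0.28 and 0.26 with G. SLC39A14 ran with PIP4K2A (r = 0.989), at -1.04 with A and -0.39 with G, and with FITM2 (r = 0.987), at -0.32 and -0.17.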

How the data were processed

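The authors deposited 1 linear signal intensity for each of 54675 probe sets on each of 9 arrays, scaled before deposit so that the mean after trimming 2% at each end was 100.01 on nearly every array; GCOS 1.4.0.036 is named per the submitters' processing notes. For background correction and the summarising of probes, the method is not stated in the labels used here. Intensities were turned into log2(signal + 16) and, since the array medians ranged over 0.201 (limit 0.1), quantile normalized. Probe sets with 1 gene symbol in the platform annotation (41097 of 54675) were kept if their mean reached the 50th percentile (5.17), and the brightest stood for its gene, giving 12505 genes. The 3 groups were fitted together with limma 3.58.1 (lmFit, eBayes with trend, R 4.3.3), with Benjamini-Hochberg adjustment and a threshold of 0.05. The script was tested on simulated data. The members and lists were chosen with earlier results of these data known. Named outside the members were measured relatives, up to 3 called genes per list, and the 2 genes most alike to each member with a difference of at least 1. Same-numbered arrays of miR-376a*G and miR-control deviated together (correlations 0.156, 0.187 and 0.125), so the replicate block is given beside results of that comparison that it changes. Those of miR-376a*A and miR-control did not (-0.335, 0.032 and -0.361), nor those of the 2 forms (-0.091, -0.098 and -0.031), and the closing section gives the block for both. Differently numbered arrays of miR-376a*G and miR-control ran from -0.285 to 0.14, and those of miR-376a*A and miR-control from -0.267 to 0.371. Correlations of this size therefore cannot settle whether the numbers pair the arrays. With 3 arrays against 3, an exact permutation test of a single value could not go below 0.1. The number of arrays limits the precision.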

Additional observations from a re-analysis of the deposited data

How the results depend on the processing

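With the replicate block, the genes of the fixed lists past the threshold went from 2 to 1 for miR-376a*A against miR-control, from 3 to 0 for miR-376a*G and from 1 to 0 between the forms (7 at an unadjusted p under 0.05 in both latter cases, limma), and member probe sets from 3 to 1 with A and from 4 to 2 with G. In the 2 comparisons whose numbers did not pair the arrays, the block left 2 of 3 members called with A, SLC30A7 (0.60) being the one lost, and ended the calls of SLC39A9 with A (adjusted p = 0.0769, range 0.00248 to 0.121) and SLC39A1 between the forms (0.0641, range 0.00021 to 0.108). With only the 6 arrays compared, list genes numbered 0 with A (8 unadjusted), 0 with G (5 unadjusted) and 7 between the forms, members with A 1 of 3, and member probe sets 1 with A and 1 with G. Array weights gave 6 list genes with A and 8 between the forms, median centring 1 with A, the 25th percentile filter and no filter 1 each with G, and an offset of 1, the mean of probe sets or no trend 2 between the forms. Leaving out 1 array gave 0 to 5 list genes in each comparison, 1 to 3 members with A, 2 to 4 with G and 3 between the forms, and 1 to 4, 1 to 5 and 1 to 4 member probe sets. Of all genes, these fits called 1.42% to 13.5% with A, 1.82% to 17.3% with G and 1.15% to 9.87% between the forms. The shares of all genes for the other alternatives are not given here, so nothing is read from these counts. The importer minus exporter difference between the forms was -0.70, and -0.52 with an offset of 64 and -0.49 with the mean of probe sets; that of G from miR-control changed sign, from -0.16 to 0.11. Without miR-376a*A replicate 3 only 1 member passed with A. The cause of these shifts was not tested.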
